A study of Mus musculus with 6 samples.

Results

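The genes that build tight, gap and adherens junctions, with a small number of desmosomal genes, were examined in mouse pancreatic acinar cells with and without the E3 ubiquitin ligase TRIP12. Members were chosen by name among protein-coding genes: all claudins, connexins of the Gja, Gjb and Gjc families, nectins, genes whose symbol starts with Ctnna, Ctnnb or Ctnnd, the scaffolds of the Tjp family, and 10 further genes (Cdh1, Ocln, Marveld2, Marveld3, F11r, Cgn, Jup, Dsp, Dsg2 and Pkp2). This gave 74 of the 55414 genes in the count tables. They were 32 claudins, 8 other tight junction membrane proteins and scaffolds, 16 connexins, Cdh1 with 6 catenins, 4 nectins, 4 desmosomal genes and 3 genes that carry a catenin name only. Messenger RNA was sequenced from adult, untreated acinar cells of 3 control preparations (Pdx1Cre;Trip12+/+) and 3 knockouts (Pdx1Cre;Trip12fl/fl), with 1 library each. Both groups carry the Cre recombinase. It is driven by the Pdx1 promoter, which is active in the progenitors of acinar, duct and islet cells, so recombination is not limited to acinar cells. The labels call the libraries biological replicates and do not say whether each came from 1 animal, so the p-values measure the spread between these libraries.

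Tight junctions seal the space between epithelial cells at the apical border. Claudins, occludin, the MARVEL proteins and the junctional adhesion molecule span the membrane, and the scaffolds of the Tjp family and cingulin tie them to actin. Gap junctions are channels made of connexins that pass ions and small metabolites, and acinar cells of the exocrine pancreas are coupled by Gjb1 and Gjb2. In adherens junctions E-cadherin (Cdh1) and the nectins hold cells together and catenins link them to actin, while desmosomes use their own cadherins and plaque proteins to anchor keratin filaments.

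Each library held between 31019500 and 34041901 gene counts. Trip12 was 29.0, 22.3 and 26.4 CPM in controls 1 to 3 (CPM is the count scaled to the library size, after normalisation by the trimmed mean of M-values) and 14.4, 14.7 and 13 CPM in the knockouts, without overlap. Its log2 fold change was -0.89 (adjusted p 0.0256, quasi-likelihood test of edgeR, Benjamini-Hochberg). Omitting any 1 library other than control replicate 1 ended that call, at log2 fold changes from -0.98 to -0.84. Library totals in place of normalised sizes also ended it (-0.49), with the median of all genes shifted to 0.43. So did sex as a covariate (-1.05, adjusted p 0.0941 in edgeR) and a fit of replicates 1 and 3 with the replicate number as a block (-1.02, 0.0528 in edgeR). Control replicates 2 and 3 came from females by their Xist and Y-linked counts, and control replicate 1 and all knockouts from males, so sex and genotype are partly confounded. No knockout was female, so the fit with sex as a covariate sets control replicate 1 alone against the knockouts. Calls lost and estimates changed in that fit, here and below, rest on that 1 control library. The acinar label was checked with 8 acinar markers such as Cpa1 and Pnlip, whose summed level ran from 349626 to 466835 CPM in the controls and from 313907 to 326188 CPM in the knockouts. That sum is carried by enzymes. Of the 8, edgeR called 0 without the block, 4 had an unadjusted p under 0.05 and DESeq2 called 2. Over all genes tested 16.7% had an unadjusted p under 0.05, and DESeq2 called 4.53%. With the block the transcription factor genes Rbpjl (log2 fold change 1.23, adjusted p 0.00203 in edgeR) and Ptf1a (-0.54, 0.046) were called, and the 2 strand columns of Ptf1a sum to 5.17 times the unstranded column. A gene is called where this adjusted p is under 0.05. Over all genes 124 of 13115 tested were called (0.945%), 61 higher (0.465%) and 63 lower (0.48%). When same-numbered libraries were compared within pairs, by fitting the replicate number as a block, 785 were called (5.99%), 446 higher (3.4%) and 339 lower (2.58%). That pairing was read from these same counts and is not stated by the labels.

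Of the 74 members, 39 had enough counts to be tested and 35 did not. No unstranded count in any library was recorded for 17 members, and 6 others had at most 3 unstranded counts in every library. Of the 39 tested members 1 was called, Cgn, which was higher in knockout. That is 2.56% of those tested, beside 0.945% of all genes. With the block 4 were called higher (Cgn, Cldn9, Cldn4 and Ctnnbip1) and 1 lower (Pkp2), 12.8% of the tested members beside 5.99% of all genes. The groups did not overlap in 7 tested members that were higher (Cgn, Cldn9, Cldn6, Nectin4, Tjp1, Marveld2 and Ctnnbip1) and 1 that was lower (Pkp2), which is 20.5% beside 22.9% of all genes tested (12% higher and 10.9% lower). The fitted difference was above 0 in 23 and below 0 in 16, with a median log2 fold change of 0.08 beside 0.02 over all genes tested. In 29 of the 39 it was smaller than 0.4 in either direction, as in 8844 of 13115 genes (67.4%). The members called with the block belonged to several structures, namely the tight junction, the desmosome and the catenin-named genes.

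**Figure D1:**
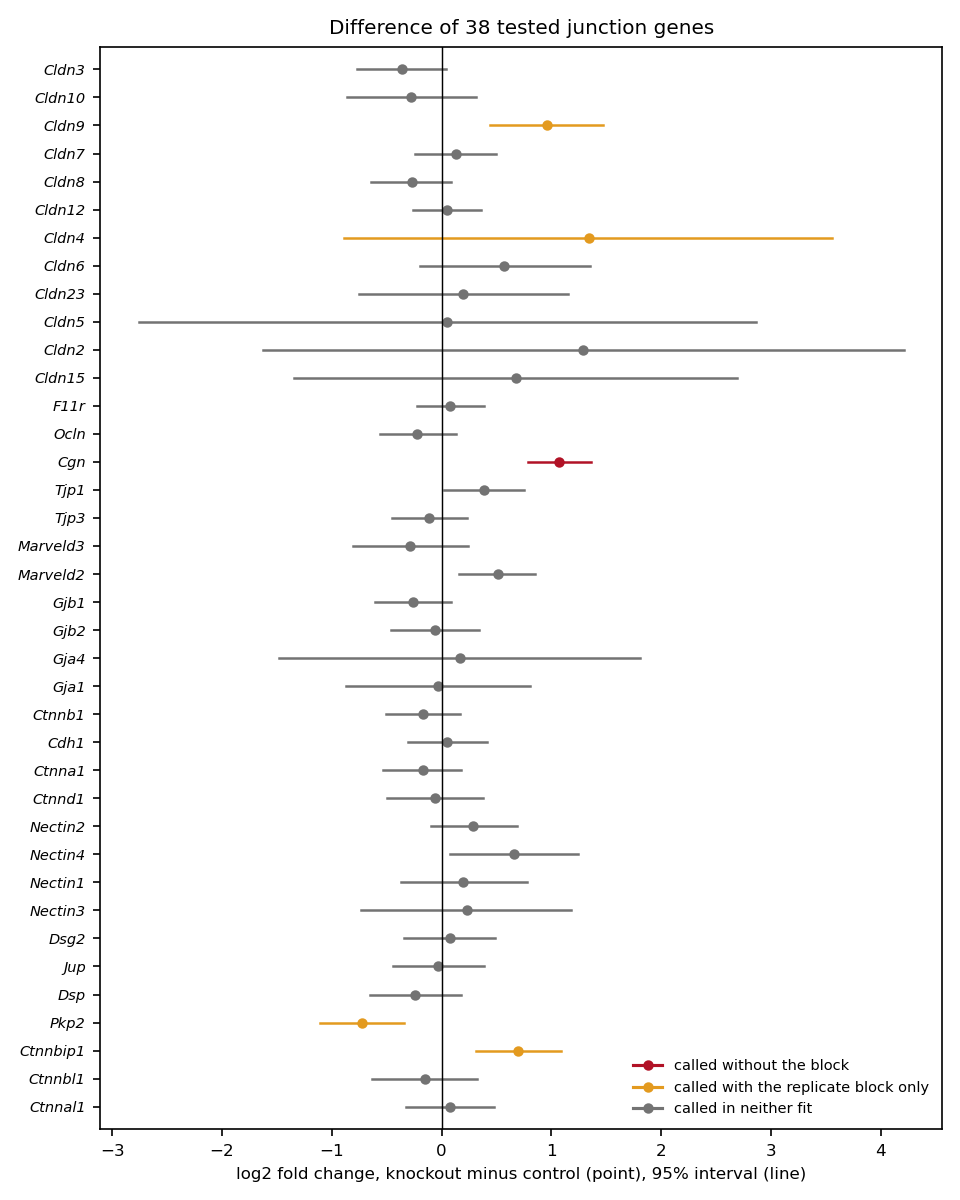
Log2 fold change of 38 of the 39 tested junction genes, knockout minus control, with its 95% interval, ordered by structure and by level. Cgn, at 1.07, is the member called without the block, and Cldn9, Cldn4, Ctnnbip1 and Pkp2 were called with the block only. The intervals drawn come from the fit without the block. That of Cldn4, at -0.89 to 3.56, includes 0, as do those of most members called in neither fit.

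The members differed widely in level. Compared per length, as CPM per kb of exon over all 6 libraries, the most abundant was Gjb1 at 25.9 CPM per kb, with libraries between 22.5 and 32.5. Ctnnb1 (19.7), Cldn3 (18.6) and Cdh1 (15.2) followed, and each of these overlapped its neighbour in that order. The order uses unstranded counts, which leave out reads that fit more than 1 gene. The 2 strand columns sum to 1.45 times the unstranded column for Ctnnb1 and 1 time for Gjb1. Which of these 2 genes is the higher is therefore uncertain. Gjb2, at 8.79 CPM per kb with libraries between 6.96 and 10.2, lay below every library of Cdh1, whose lowest was 12.9. Cldn10 (7.69) and Cldn9 (7.09) came next and overlapped with Gjb2. A gap-junction subunit, an adherens-junction core and 1 claudin thus led the list in acinar cells.

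**Figure D2:**
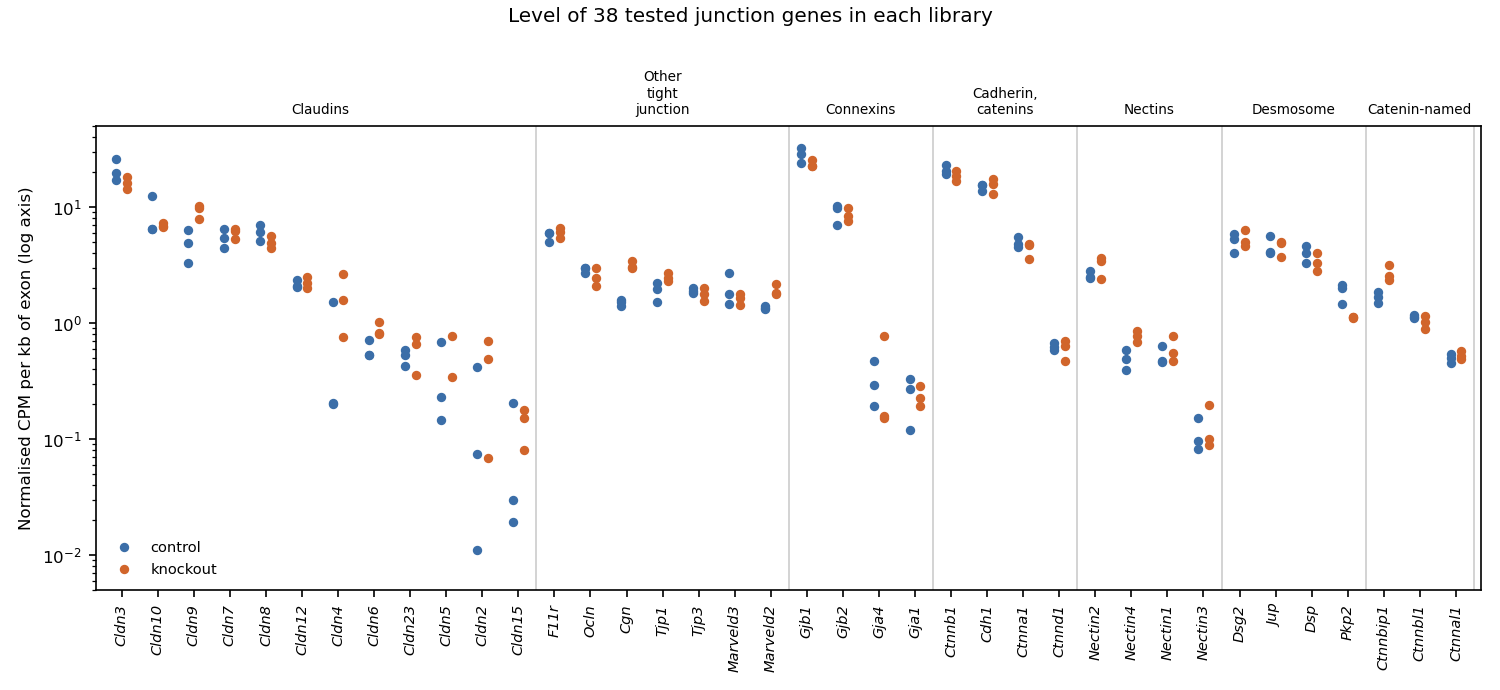
Level of 38 tested junction genes in each library, in CPM per kb of exon on a log axis, grouped by structure (blue control, orange knockout; libraries at 0 are not drawn). Gjb1, Ctnnb1, Cldn3 and Cdh1 lie highest, and in most genes the points of the 2 groups interleave.

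The promoters of 3 members called higher with the block and of Gjb2, 1 of the acinar connexins, neither of which was called, are shown so that they can be compared letter by letter. Each is the 250 bases before the start given by RefSeq in the GRCm38.p6 table, written 5′ to 3′ on the strand of the gene, with every match to the E-box CANNTG in capitals. E-boxes are read by basic helix-loop-helix factors such as PTF1A and MIST1 in acinar cells, and the form CAGGTG, or CACCTG on the other strand, also by repressors of the Snail family. The windows are Cgn at chr3:94786483-94786732 (minus strand), Ctnnbip1 at chr4:149517991-149518240 (plus strand, the first of 2 starts), Cldn4 at chr5:134946935-134947184 (minus strand) and Gjb2 at chr14:57104703-57104952 (minus strand).
Cgn: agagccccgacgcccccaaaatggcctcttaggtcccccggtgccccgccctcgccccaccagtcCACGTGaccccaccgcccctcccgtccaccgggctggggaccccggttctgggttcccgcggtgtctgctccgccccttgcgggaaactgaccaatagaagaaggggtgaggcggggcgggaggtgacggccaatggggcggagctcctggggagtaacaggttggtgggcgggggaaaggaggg
Ctnnbip1: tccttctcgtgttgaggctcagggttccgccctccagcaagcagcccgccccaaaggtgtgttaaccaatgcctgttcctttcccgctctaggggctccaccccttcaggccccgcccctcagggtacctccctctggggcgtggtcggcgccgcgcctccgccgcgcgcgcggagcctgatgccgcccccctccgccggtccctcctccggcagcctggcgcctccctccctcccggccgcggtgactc
Cldn4: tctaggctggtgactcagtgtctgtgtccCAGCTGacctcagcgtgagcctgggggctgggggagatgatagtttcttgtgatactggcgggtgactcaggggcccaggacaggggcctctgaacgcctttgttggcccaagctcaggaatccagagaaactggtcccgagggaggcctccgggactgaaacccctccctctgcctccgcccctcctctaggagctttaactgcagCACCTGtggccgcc
Gjb2: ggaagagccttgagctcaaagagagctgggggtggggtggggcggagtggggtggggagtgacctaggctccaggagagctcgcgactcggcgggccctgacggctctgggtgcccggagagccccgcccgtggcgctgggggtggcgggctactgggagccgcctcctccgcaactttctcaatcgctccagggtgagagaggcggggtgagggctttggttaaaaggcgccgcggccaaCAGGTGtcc

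The Cgn window held 1 E-box, the Cldn4 window 2, the Gjb2 window 1 and the Ctnnbip1 window none. The window of the other Ctnnbip1 start, chr4:149544867-149545116, differed from the one shown, with 2 E-boxes, 0 GC boxes and a GC content of 58%. Among 32851 windows of this length, 66.2% held at least 1 E-box. The form CAGGTG, found in the Cldn4 and Gjb2 windows on either strand, was in 17.2% of all windows. The GC box GGGCGG, read on both strands, occurred 6 times in the Cgn window, 4 times in Ctnnbip1, 2 times in Gjb2 and 1 time in Cldn4, and 32.7% of all windows held at least 1. The GC content was 70.4% in Cgn, 72.4% in Ctnnbip1, 62% in Cldn4 and 69.2% in Gjb2, beside a median of 52.4% over all windows. The table held a window for 54 of the 74 members. These matches are letters in a window, and no binding was measured.

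Among the tight junction scaffolds, Cgn was the member with the clearest difference. Cgn (ENSMUSG00000068876) encodes cingulin, a rod-shaped protein of the cytoplasmic plaque that binds the Tjp scaffolds and actomyosin. It measured 9.48, 9.08 and 8.43 CPM in controls 1 to 3 and 20.6, 17.8 and 18.4 CPM in knockouts 1 to 3. All 3 knockout libraries lay well above all controls, and the male control, at 9.48, was the highest of the controls. The means were 9 CPM ± 0.528 (SD, n = 3) and 18.9 CPM ± 1.51, a 2.10-fold rise. The log2 fold change was 1.07 (SE 0.13, 95% interval 0.79 to 1.36) with an adjusted p of 0.00894 (quasi-likelihood test of edgeR, Benjamini-Hochberg). Over 22 alternative fits it ran from 1.00 to 1.48, the highest with library totals, and Cgn was called in 18 of them. The call was lost with sex as a covariate (log2 fold change 1.00, adjusted p 0.135 in edgeR), and when control replicate 2 (1.08, 0.063), knockout replicate 1 (1.01, 0.0534) or knockout replicate 3 (1.09, 0.0516) was left out.

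**Figure D3:**
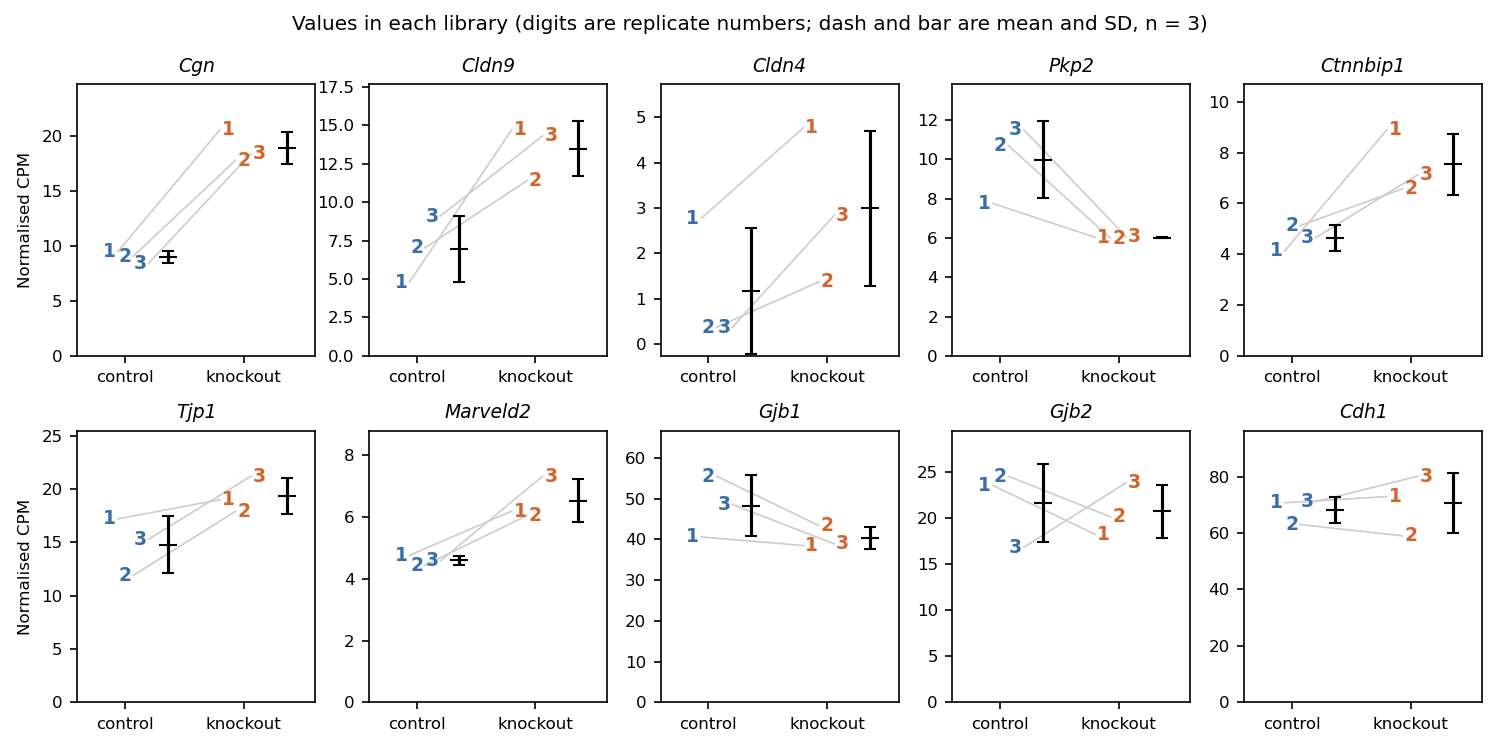
Normalised CPM of 10 junction genes in each library, on linear axes. Digits are replicate numbers, grey lines join the same number, and dash and bar are mean and SD (n = 3). Cgn, Cldn9, Ctnnbip1, Tjp1 and Marveld2 separate the groups with the knockouts higher. Pkp2 lies at 5.97 to 6.06 CPM in the knockouts below all controls, and Cldn4, Gjb1, Gjb2 and Cdh1 overlap.

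The scaffolds Tjp1 and Tjp3, which bridge claudins and actin, did not pass the test. Tjp1 was 17.2, 11.9 and 15.3 CPM in the controls and 19.0, 17.9 and 21.2 CPM in the knockouts, without overlap (log2 fold change 0.39, SE 0.16, adjusted p 0.272 in edgeR). The male control, at 17.2, lay just below the lowest knockout, at 17.9. Over 22 alternative fits the log2 fold change of Tjp1 ran from 0.17 to 0.78, with 0 calls. Tjp3 gave -0.11 (SE 0.15, adjusted p 0.79 in edgeR).

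The membrane proteins beside the claudins varied in both directions. Marveld2 encodes tricellulin, the MARVEL protein of tricellular contacts. It was 4.76, 4.44 and 4.58 CPM in the controls and 6.19, 6.05 and 7.32 CPM in the knockouts, again without overlap (log2 fold change 0.51, SE 0.15, adjusted p 0.155 in edgeR). Ocln, which encodes occludin and neighbours Marveld2 on chromosome 13, was 12.7, 11.5 and 12.6 CPM in the controls and 8.85, 10.4 and 12.5 CPM in the knockouts (log2 fold change -0.22, 95% interval -0.56 to 0.13, adjusted p 0.535 in edgeR). F11r, the junctional adhesion molecule A, had an interval of -0.22 to 0.39 around 0.08, and Marveld3 gave -0.29 (SE 0.23). Of these 8 tight junction genes edgeR called 1 higher and 0 lower, and 4 had an unadjusted p under 0.05, as had 16.7% of all genes tested.

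Claudins set how tight and how ion-selective a junction is. Of the 32, 14 had no unstranded count in any library. Among these, Cldn22 overlaps Wwc2 on the opposite strand in the GRCm38 annotation. Its 2 strand columns sum to 15 counts over all libraries, beside 0 in the unstranded column. Another 1 (Cldn18) had at most 3 unstranded counts in every library, and 12 claudins were tested. EdgeR called 0 of them without the block, 1 had an unadjusted p under 0.05, and DESeq2 called 1 (Cldn9). With the block Cldn9 and Cldn4 were called higher. Over all genes tested the shares were 0.945% in edgeR, 16.7% by unadjusted p, 4.53% in DESeq2 and 5.99% with the block. The median log2 fold change of the 12 was 0.16.

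Cldn9 (ENSMUSG00000066720) measured 4.79, 7.02 and 9.09 CPM in the controls and 14.7, 11.4 and 14.3 CPM in the knockouts. The lowest knockout library lay above the highest control, and the male control was the lowest of all. The means were 6.97 CPM ± 2.15 (SD, n = 3) and 13.5 CPM ± 1.80. The log2 fold change was 0.96 (SE 0.23, 95% interval 0.44 to 1.47) with an adjusted p of 0.095 (quasi-likelihood test of edgeR, Benjamini-Hochberg) and 0.0156 with the block. Among the 22 alternatives 5 called it, with adjusted p from 9.34e-06 to 0.317 over all of them. Its neighbour on chromosome 17, Cldn6, a claudin of early epithelium, was 1.23, 0.904 and 0.909 CPM in the controls and 1.37, 1.40 and 1.77 CPM in the knockouts (log2 fold change 0.57, SE 0.34, adjusted p 0.452 in edgeR). The groups did not overlap for either neighbour, but Cldn6 rests on 22 to 66 counts per library. Its male control, at 1.23 CPM, was the nearest to the knockouts, and with sex as a covariate Cldn6 gave 0.30.

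Cldn4 (ENSMUSG00000047501), a barrier-forming claudin of ducts and many other epithelia, was sparse and uneven. It had 88, 9 and 10 counts in the controls and 178, 48 and 106 in knockout, or 2.77, 0.370 and 0.364 CPM and 4.77, 1.37 and 2.84 CPM. Control replicate 1 lay among the knockouts and the other 2 controls far below, so the groups overlapped. Within each numbered pair the knockout was the higher library. The log2 fold change was 1.34 (SE 0.91, 95% interval -0.89 to 3.56, adjusted p 0.535 in edgeR) without the block and 1.69 with it (adjusted p 0.0332 in edgeR). It was 3.00 without control replicate 1 (adjusted p 0.0381 in edgeR) and 0.11 with sex as a covariate (adjusted p 0.967 in edgeR). The blocked call was also made without pair 1 (2.43, adjusted p 0.0374 in edgeR) and without pair 3 (1.14, 0.0469), and was lost without pair 2 (1.64, 0.245).

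The other claudins of appreciable level did not pass either test. Cldn3, a barrier claudin that neighbours Cldn4 on chromosome 5, was 21.5, 24.6 and 32.8 CPM in the controls and 22.9, 18 and 20.4 CPM in the knockouts (log2 fold change -0.36, 95% interval -0.77 to 0.04, adjusted p 0.354 in edgeR). Cldn10, which forms paracellular ion channels, was 16.7, 16.9 and 32.0 CPM in the controls and 17.7, 17.4 and 19.0 CPM in the knockouts, with control replicate 3 alone high (log2 fold change -0.28, SE 0.25, adjusted p 0.656 in edgeR). Cldn8 gave -0.27 (SE 0.16). The neighbours Cldn3 and Cldn4 therefore had fitted differences of opposite sign.

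The make-up of the claudin pool was computed after the values had been seen and is given as a description, with no test. As a percent of the summed CPM per kb of all claudins, Cldn9 made up 7.60, 10.3 and 10.4% in controls 1 to 3 and 19.0, 17.2 and 19.5% in knockout. Cldn3 made up 39.1, 41.5 and 43.0% in control and 33.9, 31.1 and 31.9% in knockout. Cldn3 was the largest share in every library. Cldn9 was below Cldn10 in every control and above it in every knockout.

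**Figure D4:**
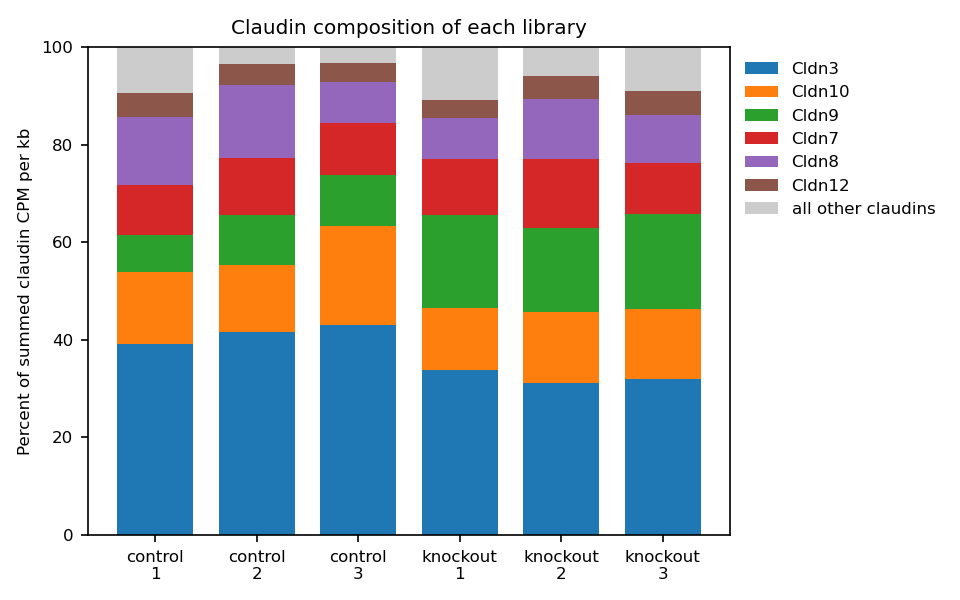
Claudin composition of each library, as percent of the summed CPM per kb of all claudins (stacked bars, 1 per library). The green Cldn9 segment is 7.60 to 10.4% in the controls and 17.2 to 19.5% in the knockouts, and the blue Cldn3 segment is 39.1 to 43.0% and 31.1 to 33.9%.

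Gap junction transcripts were dominated by the acinar pair. Gjb1 and Gjb2 together held 90.7, 96.9 and 94.5% of all connexin counts in controls 1 to 3 and 90, 95.1 and 95% in the knockouts. The widest exact 95% Clopper-Pearson interval, in knockout replicate 1, ran from 88.8 to 91.2%. The lowest share of each group was in its replicate 1.

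Gjb1 was 40.6, 55.5 and 48.6 CPM in the controls and 38.5, 43.4 and 38.9 CPM in the knockouts, with knockout replicate 2 above control replicate 1. The means were 48.2 CPM ± 7.49 (SD, n = 3) and 40.3 CPM ± 2.72, and the log2 fold change was -0.26 (95% interval -0.61 to 0.09, adjusted p 0.441 in edgeR). Gjb2 was 23.5, 24.5 and 16.8 CPM in the controls and 18.2, 20.1 and 23.8 CPM in the knockouts, which overlapped widely (log2 fold change -0.06, 95% interval -0.46 to 0.34, adjusted p 0.91 in edgeR). With library totals in place of normalised sizes, which shifted the median of all genes to 0.43 on the log2 scale, Gjb1 gave 0.17 and Gjb2 0.34, both below that shift. The log2 ratio of Gjb2 to Gjb1, which needs no scaling, averaged -1.17 ± 0.37 (SD, n = 3) in control and -0.97 ± 0.22 in knockout (exact two-sided permutation test, p = 0.4, where 0.1 is the smallest possible). No difference in either acinar connexin or in their balance was detectable with 3 libraries a group.

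The other connexins were sparse. Of the 16, 4 were tested, 3 had no count in any library, and edgeR called 0 with or without the block, as did DESeq2, with 0 at an unadjusted p under 0.05. Gja1, the connexin of many tissues, ran from 30 to 109 counts per library and overlapped widely. Gja4, a connexin of vessel walls, had 25, 12 and 9 counts in the controls and 48, 9 and 10 in knockout (log2 fold change 0.17, SE 0.73, adjusted p 0.94 in edgeR).

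Several sparse members were high in the same libraries as endothelial markers. Beside the 8 endothelial markers, whose sum was 97.8, 23.2 and 36.7 CPM in the controls and 122, 36.2 and 40.4 CPM in the knockouts, Cldn5, the main endothelial claudin, had 31, 5 and 9 counts in the controls and 41, 17 and 0 in knockout. Gja5 had 41, 7 and 4 counts and 33, 7 and 2, and Gjc1 27, 4 and 7 and 34, 8 and 5. All were highest in replicate 1 of both groups, as were the endothelial markers. The sums of the fibroblast, stellate and mural, leukocyte, islet and adipocyte markers were also highest in replicate 1 of both groups. EdgeR and DESeq2 called 0 of the 8 endothelial markers, and 0 had an unadjusted p under 0.05. The part of endothelial cells in these values was not tested. Gja5 overlaps genes of the opposite strand, and its 2 strand columns sum to 2.74 times the unstranded column, so its counts are uncertain. In bulk samples fewer cells of a type and less RNA per cell cannot be told apart.

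The 8 duct markers summed to 188, 200 and 231 CPM in the controls and 257, 175 and 266 CPM in the knockouts, and the part of duct cells in the Cldn4 values was not tested. That sum is carried mostly by Spp1 (mean 62.3 CPM in control and 131 CPM in knockout) and Muc1 (100 and 59.5 CPM), which moved in opposite directions. Without the block edgeR called 0 duct markers, DESeq2 3, and 6 had an unadjusted p under 0.05, beside 4.53% of all genes in DESeq2 and 16.7% by unadjusted p. With it Krt7 and Spp1 were called higher and Krt19 and Muc1 lower, beside 5.99% of all genes. Cldn2, which forms cation and water pores, had 44, 6 and 1 counts in the controls and 60, 8 and 87 in knockout (log2 fold change 1.29, 95% interval -1.63 to 4.21). That value moved to 3.28 when control replicate 1 was left out, to 0.75 on omitting control replicate 3, to 0.70 on omitting knockout replicate 3 and to 0.01 with sex as a covariate, and Cldn2 was called in none of these fits, by edgeR at an adjusted p from 0.154 to 0.999. Among the controls, Cldn2 and Cldn4 were both highest in replicate 1. The 8 fibroblast, stellate and mural markers summed to 85.8, 24.3 and 33.4 CPM in the controls and 104, 25.2 and 98.5 CPM in the knockouts. Control replicate 1 and knockout replicates 1 and 3 were the highest, as they were for both Cldn2 and Cldn4. The 8 leukocyte markers were high in the same libraries, at 87, 24.7 and 16.1 CPM in the controls and 59.5, 15 and 53 CPM in the knockouts. The part of any of these cells in the Cldn2 or Cldn4 values was not tested.

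**Figure D5:**
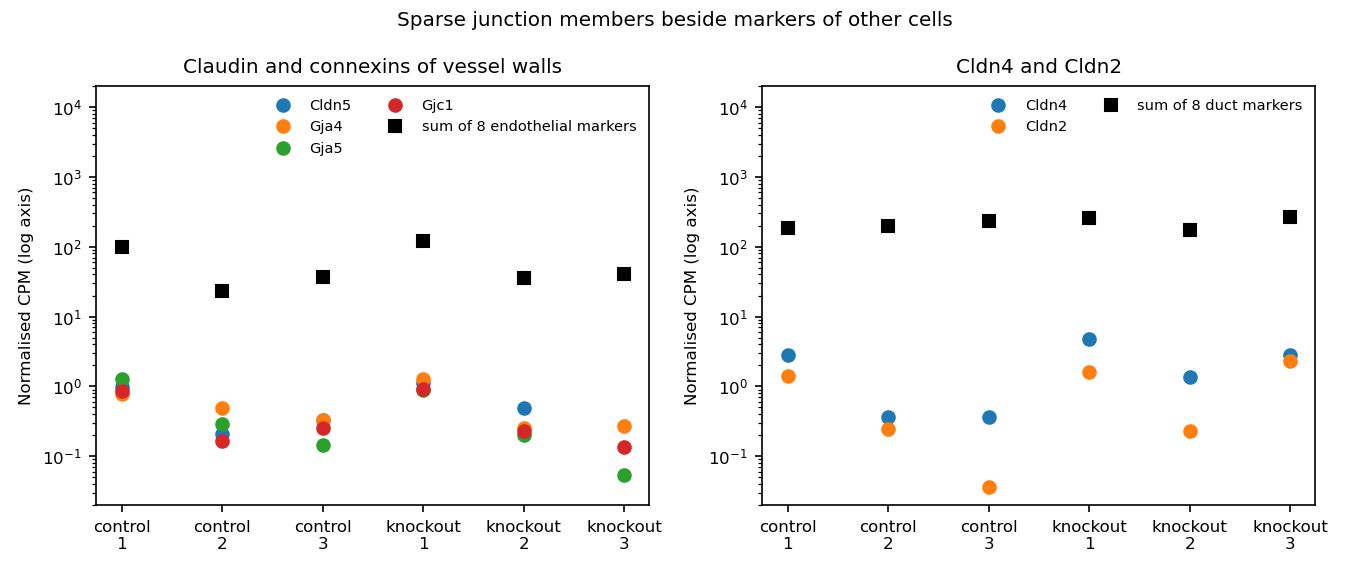
Normalised CPM of sparse junction genes (circles) and of summed marker genes (squares) in each library, on log axes. Left, Cldn5, Gja4, Gja5 and Gjc1 beside 8 endothelial markers, all highest in replicate 1 of either group. Cldn5 in knockout replicate 3 is 0 and not drawn. Right, Cldn4 and Cldn2 beside the sum of 8 duct markers, which ran from 175 to 266 CPM and is carried mostly by Spp1 and Muc1.

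No difference was detectable in the core of the adherens junction. Cdh1, E-cadherin, was 70.7, 63.0 and 71.1 CPM in the controls and 72.9, 59.0 and 80.1 CPM in the knockouts, overlapping fully (log2 fold change 0.05, 95% interval -0.31 to 0.41, adjusted p 0.918 in edgeR). Ctnnb1, which encodes β-catenin, the link from cadherin to α-catenin and a nuclear partner of TCF factors, was 106, 99.2 and 120 CPM in the controls and 86.4, 97.1 and 106 CPM in the knockouts (log2 fold change -0.17, SE 0.15, adjusted p 0.64 in edgeR). Ctnnb1 overlaps Ulk4 and an antisense gene in the GRCm38 annotation, and its 2 strand columns sum to 1.45 times the unstranded column, which leaves out reads that fit more than 1 gene. Ctnna1, α-catenin, gave -0.17 (95% interval -0.53 to 0.18). EdgeR called 0 of the 4 tested genes with or without the block, 0 had an unadjusted p under 0.05, and DESeq2 called 0. The log2 ratio of Cdh2, N-cadherin, to Cdh1 differed by 0.60 between groups (exact two-sided permutation test, p = 0.3, adjusted p 0.7 over 4 ratios) at 0.254 to 0.885 CPM of Cdh2.

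Nectins, the immunoglobulin-like adhesion receptors that join cadherins at adherens junctions, had fitted differences above 0 in 4 of 4. Over all genes, 6866 of 13115 tested had a fitted difference above 0. EdgeR called 0 nectins with or without the block, DESeq2 0, and 1 had an unadjusted p under 0.05, beside 16.7% of all genes tested. Nectin4 was 2.17, 1.48 and 1.82 CPM in the controls and 2.55, 3.20 and 2.92 CPM in the knockouts, without overlap (log2 fold change 0.66, SE 0.26, adjusted p 0.248 in edgeR). Its male control, at 2.17, was the nearest to the knockouts. Nectin2, the most abundant nectin per length, gave 0.29 (SE 0.17) and Nectin1 0.20 (SE 0.25). The median of the 4 was 0.26.

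Of the 4 desmosomal genes Pkp2 (ENSMUSG00000041957) stood apart. It encodes plakophilin 2, a plaque protein that ties desmosomal cadherins to desmoplakin. It was 7.75, 10.7 and 11.5 CPM in the controls and 6.03, 5.97 and 6.06 CPM in the knockouts. The 3 knockouts were almost equal and lay below every control, with the male control nearest to them. The means were 9.96 CPM ± 1.95 (SD, n = 3) and 6.02 CPM ± 0.0486, 1.65-fold lower. The log2 fold change was -0.72 (SE 0.17, 95% interval -1.11 to -0.34) with an adjusted p of 0.0868 (quasi-likelihood test of edgeR, Benjamini-Hochberg) and 0.0284 with the block. It was -0.90 without control replicate 1 (adjusted p 0.0152 in edgeR) and -0.36 with sex as a covariate (adjusted p 0.516 in edgeR). With library totals, which shifted the median of all genes to 0.43, Pkp2 gave -0.29.

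The other desmosomal genes were not called. Dsg2, the desmosomal cadherin, was 43.5, 33.3 and 48.4 CPM in the controls and 41.7, 38.5 and 52.1 CPM in the knockouts (log2 fold change 0.08, 95% interval -0.34 to 0.49). Jup, plakoglobin, which serves both desmosomes and adherens junctions, gave -0.03 (95% interval -0.44 to 0.39). Dsp, desmoplakin, gave -0.24 (SE 0.18, adjusted p 0.575 in edgeR). The log2 ratio of Jup to Ctnnb1, its close relative, differed by 0.15 (exact two-sided permutation test, p = 0.7).

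The 3 members with a catenin name only have other roles. Ctnnbip1 (ENSMUSG00000028988) encodes a small inhibitor that keeps β-catenin from TCF factors. It was 4.13, 5.13 and 4.65 CPM in the controls and 8.90, 6.57 and 7.13 CPM in the knockouts, without overlap (log2 fold change 0.70, SE 0.17, 95% interval 0.31 to 1.09). The adjusted p was 0.103 (quasi-likelihood test of edgeR, Benjamini-Hochberg) and 0.0491 with the block. It overlaps the antisense gene Gm13066 in the GRCm38 annotation, and its 2 strand columns sum to 2.15 times the unstranded column. Cgn, Cldn9, Cldn4 and Pkp2 overlap no other gene there. With either strand column Ctnnbip1 was called (log2 fold changes 1.00 and 1.06, adjusted p 0.028 and 0.013 in edgeR), and reads of the pair cannot be told apart in an unstranded library. Among the 22 alternatives 6 called Ctnnbip1, with log2 fold changes from 0.47 to 1.13 over all of them, the highest with library totals. It was not called with sex as a covariate (0.87, adjusted p 0.302 in edgeR). Ctnnbl1, a splicing-associated protein, gave -0.15 (SE 0.21) and Ctnnal1, a relative of α-catenin, 0.08 (SE 0.18).

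Other genes of the same structures came from a list of 73 that the member rule leaves out, such as polarity proteins, further cadherins and desmosomal plaque proteins. Of 59 tested, edgeR called 1 higher and 0 lower (DESeq2 2 and 0, limma-voom 0), and an unadjusted p under 0.05 was reached by 7 higher and 4 lower genes. With the block 4 were higher and 0 lower. Over all genes tested the shares in either direction were 0.945% in edgeR, 4.53% in DESeq2, 0.64% in limma-voom, 16.7% by unadjusted p and 5.99% with the block. The median log2 fold change was 0.14. The called gene was Baiap2, an adaptor that bends membranes and binds actin regulators. It was 8, 9.86 and 6.91 CPM in the controls and 19.0, 17.3 and 13.2 CPM in the knockouts (log2 fold change 1.00, SE 0.19, adjusted p 0.0493 in edgeR), without overlap. That call was made in 8 of 22 alternatives and ended when any 1 library was left out, with log2 fold changes from 0.89 to 1.14. With the block Arhgef2, Mpdz and Evpl were called as well. Arhgef2 encodes GEF-H1, a guanine nucleotide exchange factor that cingulin binds. It was 15.5, 9.65 and 9.96 CPM in the controls and 20.6, 19.7 and 18.6 CPM in the knockouts (log2 fold change 0.74, adjusted p 0.111 in edgeR without the block and 0.0143 with it), and 0.34 with sex as a covariate. Mpdz, a tight junction scaffold with many PDZ domains, and Evpl, envoplakin of the desmosomal plaque, were both under 3.2 CPM in every library. Cgnl1, the paralog of cingulin, was 38.8, 31.9 and 43.9 CPM in the controls and 41.3, 45.7 and 42.4 CPM in the knockouts, which overlapped (log2 fold change 0.17, SE 0.15, adjusted p 0.628 in edgeR).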

How the data were processed

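Poly-A messenger RNA of 6 acinar preparations was sequenced on Illumina instruments, per the labels' protocols. The deposited tables give whole-number counts per Ensembl gene, unstranded and by strand, and the submitters' processing notes name STAR 2.7.10a and GRCm39. The unstranded counts were used as deposited, without the 4 leading rows outside genes (36.9 to 45.7% of reads). The first strand held 50.1 to 50.3% of gene counts. Symbols, biotypes, exon lengths and neighbours came from GENCODE M21 (GRCm38), which holds 52133 identifiers (94.1%). One claudin of that annotation, Cldn34c3, was not analysed here. Promoter sequences are RefSeq's (GRCm38.p6).

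Counts were tested with edgeR 4.0.16 in R 4.3.3 (filterByExpr, TMM factors, robust quasi-likelihood fit, Benjamini-Hochberg over all 13115 genes) and called at an adjusted p under 0.05. Standard errors were the log2 fold change over the square root of F. The scripts were tested on simulated data. Ratios used counts plus 0.5 and exact permutation tests. DESeq2 1.42.0, limma 3.58.1, other scalings, filters, strands, a sex covariate, a replicate block and fits without each library were alternatives. The Clopper-Pearson intervals and the floor of 3 counts cover counting error only, while intervals of fold changes come from the quasi-likelihood fit and include the spread between libraries.

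Deviations from group means correlated at 0.63, 0.455 and 0.285 within same-numbered pairs, and at -0.496 to 0.21 otherwise. The numbers were taken to pair the libraries on these values, although the labels leave their meaning unstated. Deviations cancel within each group, so high correlations in some pairs push the others down. This comparison is therefore no independent test of the pairing, and the block rests on the same counts that it was used to test. Members, gene lists and tests were chosen with earlier results of these data known. Named genes were those called with or without the block, those whose groups did not overlap at a mean of 1 CPM or more, the 3 highest per length in each structure, and Gjb1, Gjb2, Cdh1, Ocln and Tjp1. Further members were named with their values in view. The results of a few members are not reported here.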

Additional observations from a re-analysis of the deposited data

How the results depend on the processing

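The number of junction genes called was 1. It became 6 with library totals (11.7% of all genes tested), 4 without a filter (3.3%), 5 with the replicate block, 0 with sex as a covariate (0.16%, with 3 at an unadjusted p under 0.05 in edgeR), 2 with either strand column (1.31 and 1.15%), 3 with DESeq2 (4.53%), 3 with the block without pair 1 (3.09%) and 4 with the block without pair 3 (6.11%). Leaving out single libraries gave 0 to 3. The number over all genes, 124, became 1528, 850, 785, 21 and 594 under library totals, no filter, the block, sex and DESeq2, 210 with a minimum of 10 counts in each library, 396 and 832 with the block without pair 1 and without pair 3, and 20 to 461 without single libraries. The blocked fits without a pair were chosen after seeing the data. The cause of these moves was not tested, except that library totals shift the median of all genes to 0.43, so that 1451 of 1528 calls are higher against 61 of 124.

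Of 36 genes compared over the alternatives, 19 changed sign at least once, all with an adjusted p above 0.05 in edgeR. Library totals gave Cldn10 0.16, Cldn3 0.07, Cldn8 0.14, Ctnna1 0.23, Ctnnb1 0.24, Ctnnbl1 0.26, Dsp 0.17, Marveld3 0.15, Tjp3 0.29, Gjb1 0.17, Gjb2 0.34, Jup 0.40 and Ocln 0.19, each below the shift of all genes. The sex covariate gave Cdh1 -0.0011, Cldn10 0.11, F11r -0.0038, Gja4 -0.38, Ctnnal1 -0.04, Marveld3 0.14 and Jup 0.14. The first strand column gave F11r -0.03 and Gja4 -0.10, the second Gjb2 0.01 and Jup 0.0013. Gja4 was -0.06 with the block and -0.19 with limma-voom. The block without pair 1 gave Gjb2 0.09 and Nectin1 -0.09, without pair 2 Gjb2 0.07 and Jup 0.03, and without pair 3 Cdh1 -0.02, Cldn10 0.07 and Jup 0.08. Without single libraries Cdh1 ran from -0.05 to 0.16, Cldn10 from -0.46 to 0.10, Dsg2 from -0.06 to 0.20, Gja4 from -1.02 to 0.54, Gjb2 from -0.21 to 0.04, Jup from -0.12 to 0.15 and Nectin1 from -0.02 to 0.36. The log2 ratio of Jup to Ctnnb1 ran from -0.01 to 0.30 without single libraries. The block changed the call of Cldn9, Cldn4, Ctnnbip1 and Pkp2 and of no other member tested, and leaving out pair 2 ended those 4 blocked calls. Leaving out pair 1 also ended the blocked calls of Cldn9 and Ctnnbip1, and leaving out pair 3 that of Pkp2. Pairs 2 and 3 set a female control against a male knockout, so sex and genotype differ together in them. Depth limits the sparse members, and 15 claudins and 6 connexins lie at 3 unstranded counts or fewer in every library.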
